A study of Rattus norvegicus with 12 samples.

Results

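The heat shock genes described here are Hspa1b, Hspa8, Dnajb1, Hsph1 and Bag3 of the HSP70 system, Hsp90aa1, the small heat shock proteins Hspb1 and Hspb7, and the chaperonin pair Hspd1 and Hspe1. They were taken as the probes whose gene name in the scanner files was one of these 10 names, which gave 17 of the 30367 probes and 10 of the 26583 gene names on the array. Most of the encoded proteins work in the cytosol, but Hspd1 and Hspe1 encode the chaperonin of mitochondria and its lid, so the set was not cytosolic throughout.

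Cervix cells of 12 adult female Sprague Dawley rats were used for 1-colour Agilent arrays, with 1 rat per array and 3 rats in each of 4 groups. The groups were whole cervix cells and Mφ-depleted cervix cells, each from nonpregnant (NP) rats and from pregnant rats on day 21 (D21), the day before birth. Every cervix was perfused, minced and dispersed with collagenase at body temperature. Whole cells were then frozen, whereas cells of the depleted groups, from other rats, first went through incubation with the ED1 antibody and magnetic beads. Removal of Mφs and the added handling therefore cannot be told apart. The rats of each group were separate animals.

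The scanner software rated 44.9% to 61.8% of probes as well above background, depending on the array, and 3 arrays in a group limit the precision. There were 4 slides and 3 scan days. All 6 whole arrays were scanned on the last day, with only D21 depleted rat 4 and NP depleted rat 7 of the depleted groups. The whole D21 arrays were all on slide 4, and D21 depleted rats 1, 2 and 4 were on slides 2, 1 and 3. No slide therefore held both whole and depleted D21 cervix. A block for the slide compares these 2 groups only indirectly, through the NP arrays. D21 depleted rats 1 and 2 stood apart in the balance of probes along a transcript. Over 842 other genes with more than 1 probe, the median difference between the 3′-most and the 5′-most probe, centred for each gene, was 0.73 and 0.86 on the log2 scale in these rats and lay between -0.37 and 0.17 on the other 10 arrays. Results for depleted D21 cervix are therefore also given without these rats, which leaves 1 depleted D21 array, rat 4, assumed to vary like the arrays of the other groups. The markers of the labelled cells followed the labels in part. Of the Mφ markers, 13 of 15 tested passed the test below as lower in depleted D21 cervix, against 10.0% of all genes. In NP cervix 11 of 13 did, against 13.6% of all genes. By contrast Cd68, the transcript of the ED1 antigen, averaged 0.74 in whole and 0.89 in depleted D21 cervix. Of the other Mφ markers, Adgre1, Mpeg1, Mrc1 and Ptprc were above background on no depleted D21 array. Adgre1, Cd163, Cybb, Mpeg1 and Mrc1 were above background on no depleted NP array. Where tested, these entered through the whole group alone.

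Heat shock proteins are chaperones that bind unfolded proteins. HSP70 takes up a client with the help of a J-domain protein and releases it with the help of a nucleotide exchange factor. HSP90 acts later on partly folded clients, and small heat shock proteins hold clients without using ATP. In heat or other stress the factor HSF1 binds heat shock elements, which are alternating copies of the letters GAA and TTC, and raises transcription of the inducible genes within minutes. Hspa8 is made in unstressed cells as well, and Hspb7 is known from heart and other muscle.

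The promoter sequences are shown first, because the members differed in whether these letters are present. RefSeq promoters of the GRCr8 build, from 250 bases before to 50 bases after the annotated start, were found for 8 of the 10 members. None was found for Hspa1b or Hsp90aa1, so these 2 members were not searched. The 8 promoters were searched for alternating units spaced by 2 bases, as GAANNTTC or TTCNNGAA for 2 units, and for 3 units as either of these followed by a gap of 2 bases and a unit of the kind it began with. The patterns cover both strands, and every match to 3 units also holds a match to 2. Each stretch below reads 5′ to 3′ on the strand of the gene, with the matched units in capitals.
Hspe1 (chr9:64084234-64084307, plus strand): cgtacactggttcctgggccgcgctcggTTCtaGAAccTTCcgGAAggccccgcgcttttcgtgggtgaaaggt
Hspa8 (chr8:50080273-50080341, plus strand): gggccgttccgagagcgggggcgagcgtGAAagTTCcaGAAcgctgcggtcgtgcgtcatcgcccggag
Hsph1 (chr12:10427304-10427372, plus strand): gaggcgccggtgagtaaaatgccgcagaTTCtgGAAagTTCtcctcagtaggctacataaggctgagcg
Dnajb1 (chr19:41431117-41431180, minus strand): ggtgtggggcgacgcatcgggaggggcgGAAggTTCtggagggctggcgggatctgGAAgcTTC
Hspb1 (chr12:26432395-26432458, minus strand): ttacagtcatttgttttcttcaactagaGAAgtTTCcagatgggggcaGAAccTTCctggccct
Bag3 (chr1:192533300-192533363, plus strand): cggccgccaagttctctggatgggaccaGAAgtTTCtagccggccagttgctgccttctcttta
Hspb7 (chr5:159010699-159010758, plus strand): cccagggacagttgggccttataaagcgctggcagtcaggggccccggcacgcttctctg

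Hspe1 and Hspd1 are transcribed away from each other, and their windows overlap, so that the run of 4 units shown for Hspe1 is also the run found for Hspd1. It began 65 bases before the start of Hspe1. Runs of at least 3 units were present in 4 of the 8 promoters, those of Hspd1, Hspe1, Hspa8 and Hsph1, which hold 3 separate sites. Over all 33469 promoters of the same length, 0.798% held 3 units and 0.0478% held 4. Runs of 2 units only were present in Hspb1, Dnajb1 and Bag3, and 15.9% of all promoters held at least 2 units. Hspb7 held no run of 2 units in this window, and the 60 bases before its start are shown. These matches are descriptions of letters and not measurements of binding.

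In both pregnancy groups Hspa1b, Dnajb1 and Hspb1 were higher, and Hspb7 was lower, in Mφ-depleted than in whole cervix. Values are log2 of the intensity divided by the 75th percentile of the array, so that a difference of 1 is a 2-fold difference. A gene passed the test at the threshold of the methods, an unadjusted p below 0.01 in limma with at least a 2-fold difference. In D21 rats 5 of the 10 members were higher in depleted than in whole cervix (Hspa1b, Dnajb1, Bag3, Hspb1 and Hspd1), where 7.73% of all 14245 genes tested passed in that direction. Hspb7 was lower in depleted cervix, as were 10.0% of all genes. In NP rats 3 of 10 were higher in depleted cervix (Hspa1b, Dnajb1 and Hspb1), against 10.8% of 13401 genes, and Hspb7 was again lower, against 13.6%. The other 4 members in D21 rats and 6 in NP rats did not pass. By the adjusted p alone, 7 members were higher in depleted D21 cervix, against 10.6% of all genes, and 4 in depleted NP cervix, against 15.9%. The median difference over the 10 members, whole minus depleted, was -1.03 in D21 and -0.63 in NP rats, beside -0.06 and -0.04 over all genes tested.

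**Figure D1:**
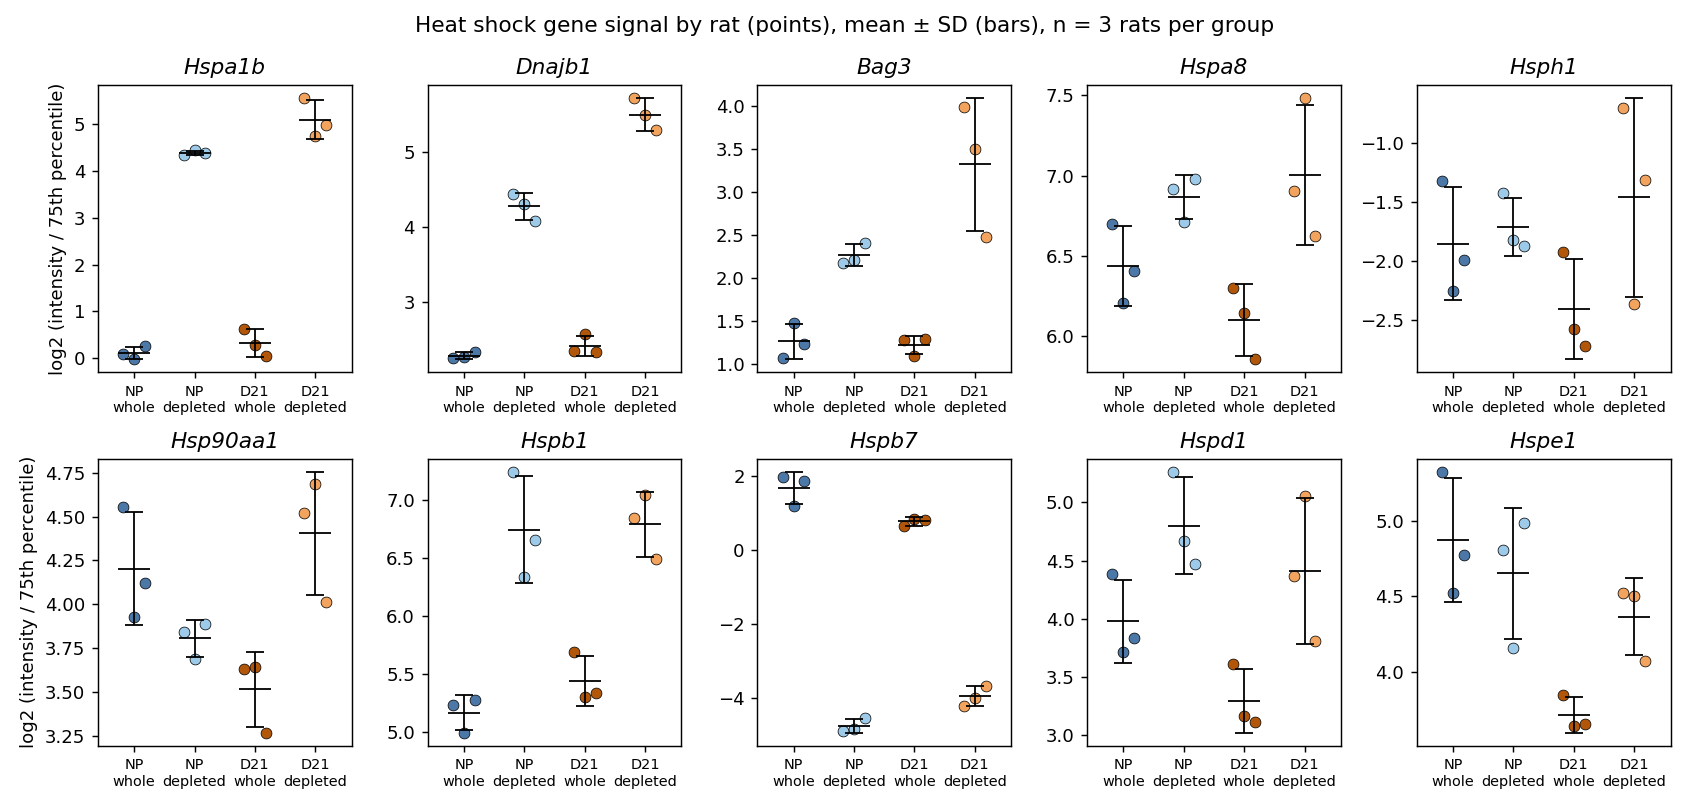
Log2 signal, divided before the log by the 75th percentile of each array, for the 10 genes, with a point for each rat and bars for the mean ± SD of 3 rats in NP whole, NP depleted, D21 whole and D21 depleted cervix. Each panel has its own vertical scale, and Hspa1b, Dnajb1 and Hspb1 lie higher, and Hspb7 lower, in all 6 depleted than in all 6 whole samples.

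Hspa1b, the stress-inducible HSP70, had the widest difference among the members that were higher after depletion. Its signal was 0.63, 0.29 and 0.03 in whole D21 cervix, against 5.57, 4.76 and 4.99 in depleted D21 cervix. The NP signal was 0.10, -0.01 and 0.25 in whole cervix and 4.35, 4.44 and 4.39 in depleted cervix. Whole and depleted groups did not overlap, and the 6 whole samples spanned less than 1 log2 unit. The signal in depleted cells was 27.6-fold that in whole cells of D21 rats (95% interval 18.8 to 40.6, limma adjusted p = 3.13e-06) and 19.4-fold in NP rats (13.3 to 28.5, adjusted p = 1.55e-06). Without D21 depleted rats 1 and 2 the D21 difference in Hspa1b was 25.4-fold, with rat 4 as the 1 depleted D21 array. On the arrays of the last scan day alone the NP difference was 19.4-fold, with rat 7 as the 1 depleted NP array.

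These values come from 1 probe of Hspa1b, at chr20:3957864-3957923 of rn4, the build of the array files, printed 10 times on each array. Its first 30 bases are shown because every Hspa1b value here rests on it.
Hspa1b probe: ctcgtgggttttttatatattcaaattaag
A second Hspa1b probe, at chr20:3959493-3959552, was rated well above background on 0 of 12 arrays. Hspa1a, the neighbouring copy of the gene, has no probe of that name on the array, and the current RefSeq table gives Hspa1b also as another name of Hspa1a. Signal from these copies could not be told apart. Averaging both Hspa1b probes lowers the difference to 5.55-fold in D21 and 3.38-fold in NP rats, because the second probe is then counted.

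Dnajb1, the J-domain partner of HSP70, followed the same order of groups. Its signal was 2.34, 2.57 and 2.33 in whole and 5.73, 5.50 and 5.29 in depleted D21 cervix. Among NP rats the signal was 2.24, 2.27 and 2.33 in whole and 4.44, 4.30 and 4.09 in depleted cervix. The depleted D21 samples were thus the highest, the depleted NP samples next, and the whole samples of both groups lay together at the bottom. The difference between depleted and whole cells was 8.54-fold in D21 rats (95% interval 6.24 to 11.7, limma adjusted p = 1.06e-05) and 4.00-fold in NP rats (2.94 to 5.44, adjusted p = 3.44e-05). Among depleted cells Dnajb1 was 2.34-fold higher in D21 than in NP rats (adjusted p = 0.0056). It was 1 of 2 members that passed this comparison, in which 5.43% of 13398 genes were higher in D21 rats. Markers of other cells moved with it, since 8 of 9 fibroblast genes tested and 6 of 8 smooth muscle genes were higher in depleted D21 than in depleted NP cervix. The summed fibroblast signal, in units of the 75th percentile, lay between 325 and 487 in depleted D21 and between 17.8 and 60.9 in depleted NP cervix, with Col6a3 above background on no depleted NP array. The summed smooth muscle signal lay between 44.7 and 160 and between 21.4 and 28.6. The part of these markers in the differences of Dnajb1 and Bag3 between depleted groups was not tested. The Dnajb1 difference no longer passed with normexp background correction or quantile normalization. Without rats 1 and 2 the depleted D21 sample was 2.02-fold above the NP samples (adjusted p = 0.12), and the interaction of depletion with pregnancy did not reach an adjusted p of 0.05 (log2 -1.09 ± 0.29 SE, adjusted p = 0.079).

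Bag3, a nucleotide exchange factor that links HSP70 to autophagy, varied most among depleted D21 rats. Its signal was 1.27, 1.09 and 1.28 in whole and 3.98, 3.49 and 2.47 in depleted D21 cervix. In the NP groups the values were 1.07, 1.48 and 1.23 in whole and 2.17, 2.20 and 2.40 in depleted cervix. The highest values were those of D21 depleted rats 1 and 2, while rat 4 lay near the NP depleted samples. Depleted cells had 4.29-fold the Bag3 signal of whole cells in D21 rats (limma adjusted p = 0.0022), and 2.39-fold with rat 4 as the 1 remaining depleted D21 array (adjusted p = 0.040). With the slide as a block the D21 difference in Bag3 no longer passed (log2 -1.57, whole minus depleted, adjusted p = 0.36). It did not pass with Welch's test, the t-test of the methods, either (adjusted p = 0.22). In NP rats the difference was 2.00-fold with an unadjusted p of 0.011 and an adjusted p of 0.037, just outside the threshold. Bag3 was the other member above the threshold among depleted cells, 2.08-fold higher in D21 rats with an adjusted p of 0.10. That difference was 1.16-fold without rats 1 and 2, and it no longer passed on leaving out any single rat other than D21 depleted rat 4 and NP whole rat 9.

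**Figure D2:**
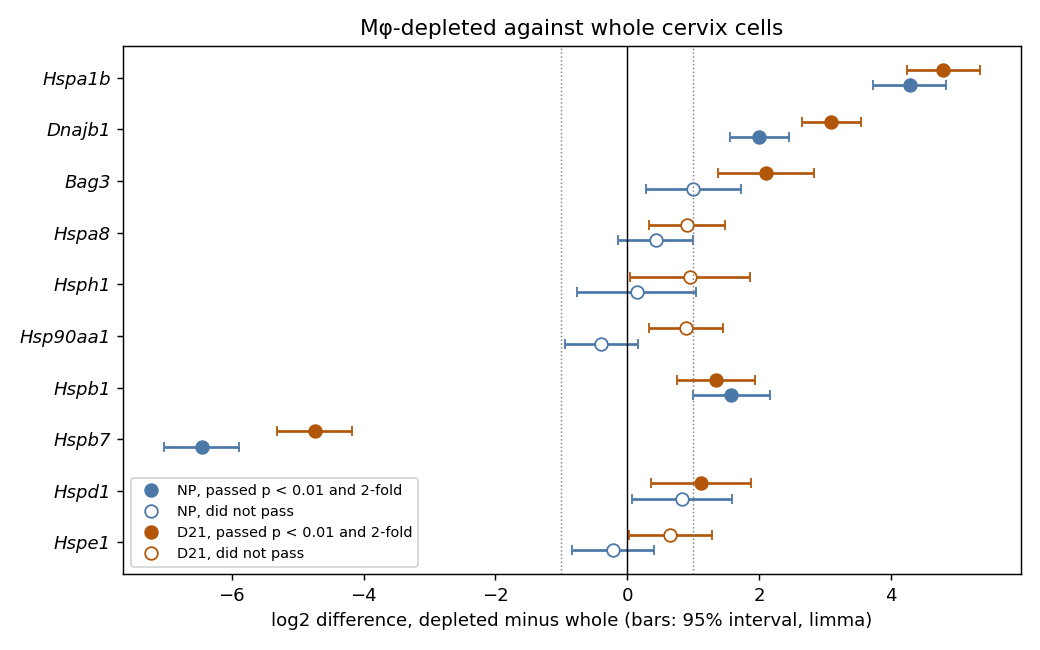
Log2 difference between depleted and whole cervix, depleted minus whole, for each gene in NP and D21 rats, with 95% intervals from limma. Filled points passed the threshold, dotted lines mark a 2-fold difference, and Hspb7 lies opposite to Hspa1b and Dnajb1 in both groups.

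Hspa8, the constitutive HSP70, had a smaller difference, which depended on the probe. On the brightest probe the signal was 6.30, 6.14 and 5.86 in whole and 6.90, 7.48 and 6.63 in depleted D21 cervix. In NP rats it was 6.70, 6.21 and 6.41 in whole and 6.91, 6.71 and 6.98 in depleted cervix. Depleted cells were higher without overlap in both groups, but by only 1.87-fold in D21 rats (limma adjusted p = 0.033) and 1.35-fold in NP rats (adjusted p = 0.23). The 4 probes of Hspa8 are shown in order from the 5′ end of the gene, because they gave opposite directions in D21 rats. The capitals mark the 20 bases shared by the first and second probe.
Hspa8 probe 1: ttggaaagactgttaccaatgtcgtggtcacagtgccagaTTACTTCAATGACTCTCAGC
Hspa8 probe 2: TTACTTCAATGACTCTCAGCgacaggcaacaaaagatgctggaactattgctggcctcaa
Hspa8 probe 3: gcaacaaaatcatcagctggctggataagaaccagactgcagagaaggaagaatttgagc
Hspa8 probe 4: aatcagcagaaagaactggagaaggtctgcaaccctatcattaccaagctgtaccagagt
They lie between position 43785314 and 43787576 of chromosome 8 in rn4, and probe 4 is the brightest.

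Probe 1 of Hspa8 read 3.35 and 2.74 in D21 depleted rats 1 and 2, and 4.50 in rat 4. Its whole D21 samples read 4.42, 4.08 and 3.84. The 2 lowest values of this probe over all 12 arrays were thus those of the rats that were highest or near highest on probe 4. Whole minus depleted in D21 rats was 0.58 and 0.64 on probes 1 and 2, with adjusted p of 0.33 and 0.25. It was -0.78 and -0.90 on probes 3 and 4 of Hspa8, with adjusted p of 0.049 and 0.033. Probe 4 minus probe 1 was 3.55 and 4.74 in D21 depleted rats 1 and 2 and between 1.88 and 3.20 on the other arrays, which is the direction that the 842 other genes took in these rats. The part of this 3′ to 5′ balance in the Hspa8 difference was not tested. Without rats 1 and 2 the difference on probe 4 was 1.44-fold (adjusted p = 0.40).

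Hsph1, an HSP110 that acts as exchange factor for HSP70 and raises its release of clients, did not pass in either group. Its signal was -1.93, -2.57 and -2.72 in whole and -0.70, -2.37 and -1.32 in depleted D21 cervix. The NP signal was -1.32, -2.25 and -1.99 in whole and -1.43, -1.83 and -1.88 in depleted cervix. The groups overlapped in both comparisons, and the spread within depleted D21 rats was wider than the difference between most groups. Depleted over whole was 1.93-fold in D21 rats (95% interval 1.03 to 3.61, limma adjusted p = 0.11) and 1.10-fold in NP rats (0.591 to 2.06, adjusted p = 0.81). Its promoter held a run of 3 heat shock units, and that of Dnajb1, which passed in both groups, held runs of 2 units. The part of these units in the differences of Hsph1 and Dnajb1 was not tested.

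Hsp90aa1, the inducible cytosolic HSP90, did not pass in either group. Its brightest probe read 3.63, 3.65 and 3.27 in whole and 4.52, 4.68 and 4.01 in depleted D21 cervix. In NP rats it read 4.56, 3.93 and 4.12 in whole and 3.84, 3.69 and 3.89 in depleted cervix. The depleted samples lay above the whole samples in D21 rats and below them in NP rats, without overlap in either. The depleted D21 signal was 1.85-fold the whole signal (limma adjusted p = 0.031), and the NP difference of 0.39, whole minus depleted, had an adjusted p of 0.25. The interaction was -1.28 ± 0.36 SE on the log2 scale with an adjusted p of 0.090. Without D21 depleted rats 1 and 2 the D21 difference in Hsp90aa1 was 1.41-fold (adjusted p = 0.45).

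The other probes of Hsp90aa1 gave a smaller D21 difference and a larger NP difference. On the 5′-most probe whole minus depleted was -0.13 in D21 rats (adjusted p = 0.78) and 0.95 in NP rats (adjusted p = 0.031). On the 3′-most probe it was -0.26 and 1.25, with adjusted p of 0.71 and 0.065. The 3′-most probe of Hsp90aa1 read 0.57, 0.59 and 1.24 in NP depleted rats 5 and 6 and D21 depleted rat 2, the 3 arrays of slide 1, and between 1.73 and 2.88 on the other arrays. The part of the slide in this was not tested. The RefSeq table lists 16 pseudogenes of Hsp90aa1 and 33 of Hspa8, whose transcripts could share these probes.

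**Figure D3:**
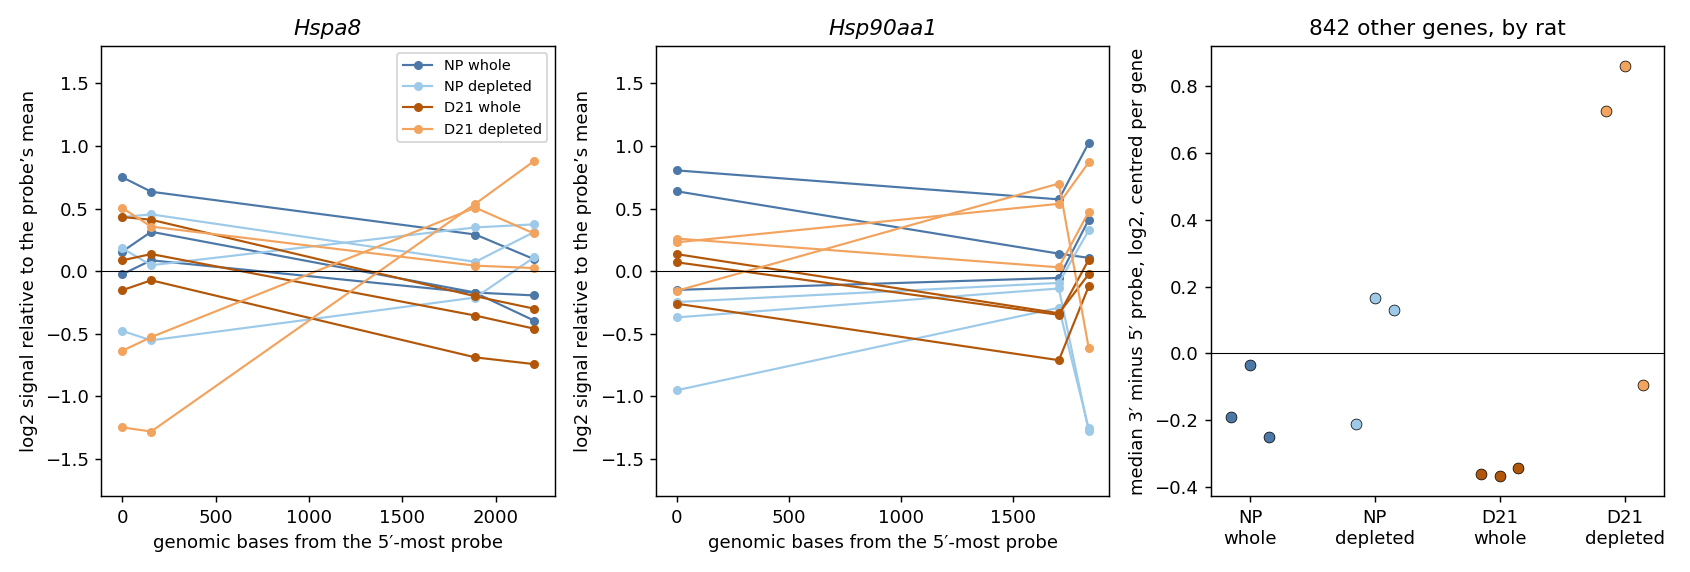
Left and middle, log2 signal of each Hspa8 and Hsp90aa1 probe relative to the mean of that probe over 12 arrays, against the distance in genomic bases from the 5′-most probe, with a line for each rat. Right, the median difference between 3′-most and 5′-most probe over 842 other genes, with a point for each rat, where D21 depleted rats 1 and 2 lie at 0.73 and 0.86.

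Hspb1, a small heat shock protein that binds actin and unfolded clients, was higher in depleted cells of both groups. It is read by a probe on the minus strand of rn4, within chr12:21911494-21911664, whose sequence is given because all values rest on it.
Hspb1 probe: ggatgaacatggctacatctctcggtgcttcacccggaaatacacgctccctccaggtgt
Its signal was 5.68, 5.30 and 5.34 in whole and 6.84, 7.04 and 6.49 in depleted D21 cervix. Among NP rats the signal was 5.23, 4.99 and 5.27 in whole and 7.24, 6.33 and 6.65 in depleted cervix. All depleted samples lay above all whole samples. The difference was 2.55-fold in D21 rats (95% interval 1.69 to 3.84, limma adjusted p = 0.0074) and 2.98-fold in NP rats (1.99 to 4.48, adjusted p = 0.0011). Without D21 depleted rats 1 and 2 the D21 difference in Hspb1 was 2.07-fold and no longer passed (adjusted p = 0.18). With the slide as a block it did not pass either (log2 -1.33, whole minus depleted, adjusted p = 0.47). Nor did the D21 difference pass with normexp background correction or quantile normalization. In NP rats Hspb1 did not pass with Welch's test, the t-test of the methods (adjusted p = 0.098). Whole cervix of D21 rats and of NP rats differed by 0.28 on the log2 scale (adjusted p = 0.58).

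Hspb7, a small heat shock protein of heart and skeletal muscle, was lower in depleted cells of both groups. Its probe lies at chr5:160314136-160314195 of rn4, on the plus strand, and is shown because it read at the edge of background in depleted cells.
Hspb7 probe: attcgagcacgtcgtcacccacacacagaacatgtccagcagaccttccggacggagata
The signal was 0.65, 0.86 and 0.82 in whole and -4.22, -4.00 and -3.68 in depleted D21 cervix. In the NP groups the values were 2.00, 1.19 and 1.88 in whole and -4.90, -4.84 and -4.55 in depleted cervix. Every whole sample was well above background, against 2 of 3 depleted D21 samples and 1 of 3 depleted NP samples. The whole signal was 26.8-fold the depleted signal in D21 rats (limma adjusted p = 3.59e-06) and 87.8-fold in NP rats (adjusted p = 2.13e-07), with the depleted level resting in part on values not well above background. The study itself listed Hspb7 on these samples among genes that fall with Mφs in both groups, so the direction is not independent evidence.

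The fit gave Hspb7 an interaction of depletion with pregnancy of -1.71 ± 0.37 SE on the log2 scale (limma adjusted p = 0.039). Of the 10 members it alone passed, beside 2.37% of 14555 genes in either direction. Because 1 of 3 depleted D21 and 2 of 3 depleted NP arrays were not well above background in Hspb7, the size of each difference, and so of the interaction, rests in part on those values and was not measured exactly. Whole NP samples lay above whole D21 samples without overlap, by 1.88-fold (adjusted p = 0.065). On slide 4, which held 1 NP and 3 D21 whole arrays, D21 minus NP was -1.11 on the log2 scale. The interaction did not pass in 16 of 27 alternatives. These include leaving out rats 1 and 2 (adjusted p = 0.088) and leaving out any single rat other than NP depleted rat 7, D21 depleted rat 4 and NP whole rat 9. Depleted cells of D21 and NP rats could not be compared in Hspb7 at this signal, because neither group was well above background on all arrays.

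Markers of some other cell types moved with Hspb7. Over all genes tested, 10.0% in D21 and 13.6% in NP rats were lower in depleted cervix, and 7.73% and 10.8% were higher. Of 10 smooth muscle genes, 7 in D21 rats and all 10 in NP rats were lower in depleted cervix. Their summed signal, in units of the 75th percentile, lay between 293 and 400 in whole and between 44.7 and 160 in depleted D21 cervix. In NP rats it lay between 436 and 685 in whole and between 21.4 and 28.6 in depleted cervix. Of the skeletal muscle genes 2 of 4 tested in D21 and 5 of 5 tested in NP rats were lower. Actn3, Ckm, Myh2, Myh4 and Mylpf were above background on no whole D21 array. Actn3, Casq1, Ckm, Myh2 and Myh4 were above background on no depleted NP array. Fibroblast genes were lower in 3 of 10 in D21 and 9 of 9 in NP rats, and the Mφ genes as given above. Of 9 epithelial genes, 4 in D21 and 5 in NP rats were higher in depleted cervix, and 1 in D21 rats was lower. Of the endothelial genes, 3 of 10 tested in D21 rats were lower, and of 9 tested in NP rats 2 were lower and 1 was higher. The summed endothelial signal overlapped between whole and depleted cervix in both pregnancy groups. In such bulk samples fewer cells of a type and less RNA per cell cannot be told apart. The part of these markers in the Hspb7 difference was not tested.

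By Pearson correlation over the 12 arrays, among 9847 named genes, the 5 genes most like Hspb7 were Pilra (r = 0.993), Plekho1 (r = 0.991), Cnn1 (r = 0.991), Ms4a7 (r = 0.989) and Ptpro (r = 0.987). Cnn1 is a calponin of smooth muscle and Ms4a7 is known from Mφs, and both were lower in depleted cervix. Cnn1 averaged 4.53 in whole and 0.56 in depleted D21 cervix, and 5.69 in whole and -0.97 in depleted NP cervix. For Hspa1b the search covered 7490 named genes well above background on all 12 arrays. The 5 most like it were Atf3 (r = 0.984), Ppp1r15a (r = 0.981), Nr4a1 (r = 0.978), Jun (r = 0.967) and Shank3 (r = 0.962). Atf3 and Jun are transcription factors induced within minutes of a stimulus, and Ppp1r15a is a stress-induced phosphatase subunit. Atf3 averaged -1.45 in whole and 4.08 in depleted D21 cervix, and -1.63 in whole and 3.64 in depleted NP cervix. The arrays fall into whole and depleted groups, so these coefficients mostly restate that division.

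Immediate-early genes, whose transcripts appear within minutes of a stimulus, were mostly higher in depleted cervix of both groups, as were Hspa1b and Dnajb1. The inducible Hsp90aa1 did not share this in NP rats, where whole minus depleted was 0.39. Of 18 tested in D21 rats 13 were higher in depleted cervix, against 7.73% of all genes. In NP rats 14 of 17 were higher, against 10.8% of all genes. The summed signal of the immediate-early genes lay between 58.6 and 67.8 in whole and between 202 and 304 in depleted D21 cervix. In NP rats it lay between 31.5 and 37.9 in whole and between 114 and 177 in depleted cervix. Of this list Egr2, Egr3, Fosb, Fosl1 and Zfp36 were above background on no whole D21 array. Egr2, Egr3, Fosb and Fosl1 were above background on no whole NP array, and Egr2 on no depleted NP array either. Where these genes were tested, they entered through the depleted group alone. The part of the immediate-early genes in the differences of Hspa1b, Dnajb1 and Bag3 was not tested.

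Hspd1 and Hspe1, the mitochondrial chaperonin and its co-chaperonin, share a promoter region, and each passed in a different comparison; the difference between the genes was not tested. Hspd1 read 3.61, 3.16 and 3.11 in whole and 4.37, 5.06 and 3.81 in depleted D21 cervix. In NP rats it read 4.38, 3.72 and 3.83 in whole and 5.26, 4.67 and 4.47 in depleted cervix. Depleted samples lay above whole samples without overlap in both groups. The difference was 2.17-fold in D21 rats (limma adjusted p = 0.041) and 1.77-fold in NP rats (adjusted p = 0.090). Without D21 depleted rats 1 and 2 the D21 difference in Hspd1 was 1.43-fold and did not pass (adjusted p = 0.56). With the slide as a block whole minus depleted was -0.51 (adjusted p = 0.83), and with the scan day as a block -0.73 (adjusted p = 0.24). The call was also lost on leaving out D21 depleted rat 1 or 2, D21 whole rat 6 or 7, NP depleted rat 6 or NP whole rat 10. In total Hspd1 did not pass in D21 rats in 19 of 32 alternatives. The RefSeq table lists 20 pseudogenes of Hspd1.

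Hspe1 was the member that passed between whole cervix of D21 and NP rats. Its brightest probe read 3.85, 3.64 and 3.66 in whole D21 cervix and 5.32, 4.52 and 4.77 in whole NP cervix. D21 samples lay below NP samples without overlap, by 2.23-fold (95% interval 1.44 to 3.45, limma adjusted p = 0.039), and 3.1% of 14045 genes passed in that direction. A second probe of Hspe1 gave -1.01 ± 0.30 SE, D21 minus NP, with an adjusted p of 0.080. On slide 4 alone, with rat 10 as the 1 whole NP array, the D21 rats were lower by a difference of -1.06. With the slide as a block, which gave this same difference, the call of Hspe1 was lost (adjusted p = 0.33). It was also lost without NP whole rat 8, where the difference was -0.93. In depleted cervix Hspe1 read 4.52, 4.50 and 4.07 in D21 and 4.81, 4.16 and 4.98 in NP rats, which overlapped. Depleted over whole was 1.57-fold in D21 rats (adjusted p = 0.12), and whole minus depleted was 0.22 on the log2 scale in NP rats (adjusted p = 0.58).

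None of the other 9 members passed between whole cervix of D21 and NP rats, where 8.49% of all genes passed in either direction. At an unadjusted p below 0.05 in limma, with no fold threshold, the number was 3 of all 10 members, Hspe1 included. The share of all genes at that threshold is not given here, so the number cannot be read as an excess. Hspa1b, Dnajb1 and Bag3 differed by 0.20, 0.14 and -0.04 on the log2 scale, D21 minus NP. The interval of the Hspa1b difference ran from -0.35 to 0.76. For Dnajb1 it ran from -0.31 to 0.59, and for Bag3 from -0.77 to 0.68, so that differences of more than 2-fold lay outside all 3 intervals. Hsp90aa1 was lower in D21 than in NP whole cervix by 1.61-fold (adjusted p = 0.14), without overlap. Groups without overlap were frequent on these arrays: they held for 6 of 10 members and for 44.3% of all genes in this comparison. In the whole against depleted comparisons they held for 9 of 10 members in D21 rats, against 44.5% of all genes, and for 8 of 10 in NP rats, against 47.0%.

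Most of the remaining chaperone genes did not pass, which was also the usual outcome over the whole array. Of 60 other genes in 9 lists, 56 were tested in D21 rats, of which 1 was higher and 5 were lower in depleted cervix. The matching shares for the whole array were 7.73% and 10.0%. In NP rats 54 were tested, of which 3 were higher and 9 lower, against shares of 10.8% and 13.6%. The median difference over these lists, whole minus depleted, was 0.04 in D21 and 0.24 in NP rats.

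Hsp90ab1, the constitutive partner of Hsp90aa1, was higher in depleted cervix, with a whole minus depleted difference of -1.07 in D21 rats (limma adjusted p = 0.0093) and -1.25 in NP rats (adjusted p = 0.0015). Trap1, the HSP90 of mitochondria, differed by -1.26 in NP rats (adjusted p = 0.0057). Hsf1, the factor that binds heat shock elements, averaged 1.30 in whole and 1.72 in depleted D21 cervix (adjusted p = 0.18). In NP rats Hsf1 averaged 0.94 in whole and 2.01 in depleted cervix (adjusted p = 0.0035). Transcript level says nothing of Hsf1 activity. Hspa5, the HSP70 of the endoplasmic reticulum, differed by -0.20 in D21 rats (adjusted p = 0.65) and 0.35 in NP rats (adjusted p = 0.39). Hspa9, the HSP70 of mitochondria, differed by 0.95 (adjusted p = 0.10) and -0.11 (adjusted p = 0.85).

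Small heat shock proteins of muscle went with Hspb7 and not with Hspb1. All 4 tested, Hspb2, Hspb6, Hspb8 and Cryab, were lower in depleted NP cervix, and Hspb6 and Hspb8 were also lower in depleted D21 cervix. Hspb8, a partner of Bag3, differed by 2.63 in D21 rats (limma adjusted p = 0.00019) and by 4.74 in NP rats (adjusted p = 1.55e-06), whole minus depleted. Hspb6 differed by 3.05 in NP rats (adjusted p = 0.00012) and Cryab by 2.56 (adjusted p = 0.00025). Bag3 and Hspb8 therefore differed in opposite directions after depletion. Hspa2, an HSP70 best known from testis, was lower in depleted cells by 1.61 in D21 (adjusted p = 0.0071) and by 2.54 in NP rats (adjusted p = 0.00014). The J-domain gene Dnajb5 was lower by 1.96 in D21 rats (adjusted p = 0.028), and Dnajc3 of the endoplasmic reticulum by 1.36 (adjusted p = 0.038).

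**Figure D4:**
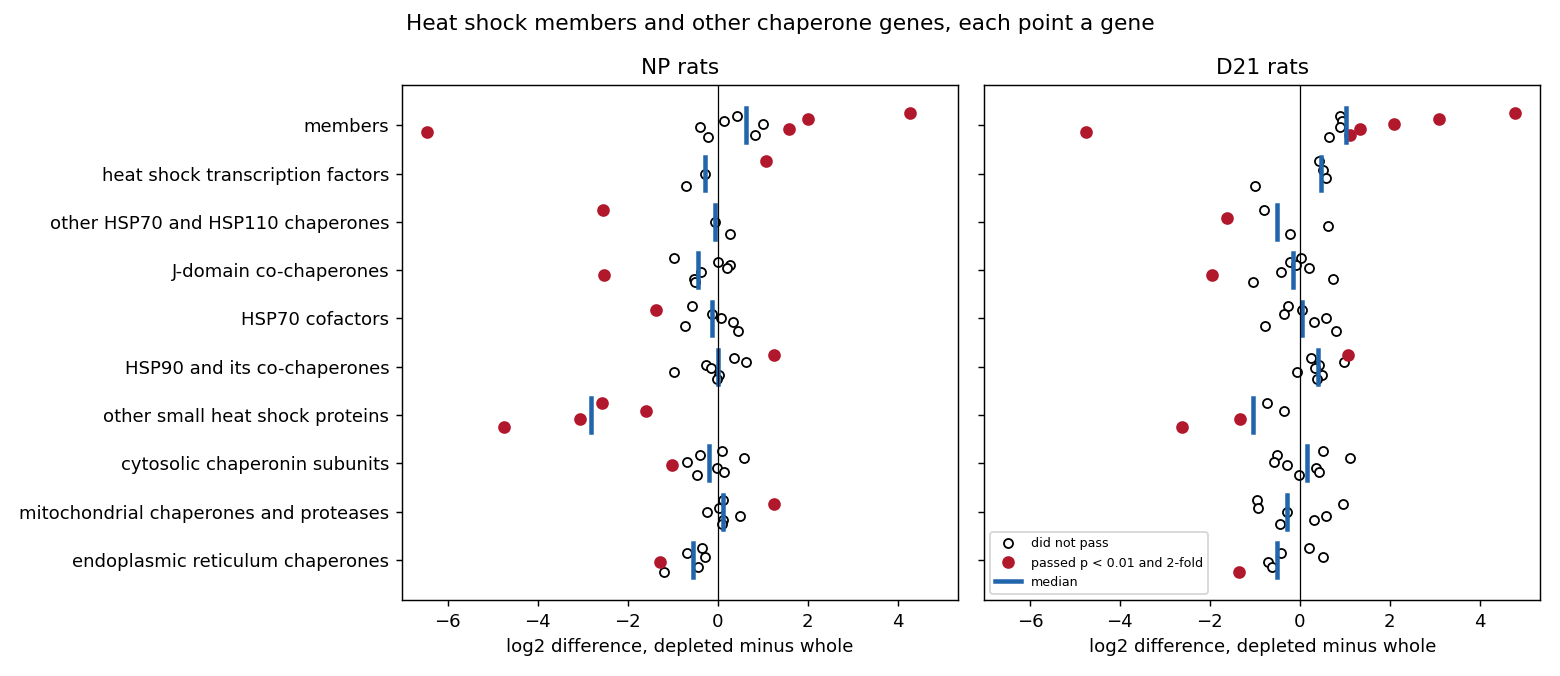
Log2 difference between depleted and whole cervix, depleted minus whole, in NP rats and D21 rats, with a point for each gene tested, filled where it passed the threshold, and a bar at the median of each list. The members spread from Hspb7 on the left to Hspa1b on the right, and the other small heat shock proteins lie on the left.

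The order of the rats within each group was counted over the 10 members. It was not counted over all genes, so whether these orders are particular to the members was not tested. In depleted D21 cervix rat 4 was lowest in 7 of the 10 members, and rats 1 and 2 together were highest in 9. In whole D21 cervix rat 7 was lowest in 6 members, and in whole NP cervix rat 9 was lowest in 8 and rat 8 highest in 6. Depleted NP rats had no rat that was lowest in more than 4 members.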

How the data were processed

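The authors deposited scanner intensities, as Feature Extraction 9.5.3.1 wrote them per the file headers, background-subtracted and not yet normalized, and a second table of ratio values, the intensity of a probe over the 75th percentile on that array. The intensities were the main data and the ratios an alternative. Spots of a probe were averaged, outlier spots left out (294 to 648 per array), and log2 intensity was set against the 75th percentile of each array. The brightest probe stood for a gene, tested where 1 of the groups compared had all 3 arrays well above background. Tests used limma 3.58.1 in R 4.3.3 with 4 group means over 12 arrays and Benjamini-Hochberg adjustment over all genes; the methods name Welch's test, which is an alternative. The script was tested on simulated data. An exact permutation test of 3 against 3 rats cannot go below p = 0.1. Python 3.11.15 was used for promoters and plots. The members, the lists and the rule for named genes (all 10 members, the 4 called chaperone genes with the largest difference in each direction, Hsf1, Hsp90ab1, Hspa5 and Hspa9, and the 5 genes most like Hspa1b and Hspb7) were chosen with earlier results of these data known. Alternatives covered the threshold, tool, background correction, scaling, filter, probe choice, naming, array weights, a block for slide or for scan day, and leaving out each rat.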

Additional observations from a re-analysis of the deposited data

Results flagged for a closer look

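Hspb7 passed the interaction of depletion with pregnancy, at -1.71 on the log2 scale (limma adjusted p = 0.039). Its probe was not well above background on 1 of 3 depleted D21 and 2 of 3 depleted NP arrays, so the size of this value rests in part on those arrays. In Hsp90aa1 the depleted samples lay above the whole samples in D21 rats and below them in NP rats, without overlap, but neither comparison passed, and the interaction of -1.28 had an adjusted p of 0.090. No explanation was tested.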

How the results depend on the processing

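No paired analysis was possible because the groups compared share no rat numbers. Of the members higher in depleted D21 cervix, 5 became 3 with the methods' t-test, 0 with its adjusted p, 3 with normexp, 3 with quantile normalization, 2 with the slide as a block and 3 without D21 depleted rats 1 and 2 (which is, like the last scan day alone, chosen after seeing the data, and leaves 1 depleted D21 array assumed to vary like the other groups). Leaving out single rats gave 4 to 7, and in NP rats, where 3 were higher, 3 to 4. With the methods' t-test, adjusted or not, Hspb1 did not pass in NP rats. Hspb7, the 1 member lower in depleted cervix, gave 0 in D21 rats with the adjusted t-test, and could not be tested (0) in D21 or NP rats where every array had to be above background. Leaving out single rats kept the count at 1 in both. Between whole D21 and NP cervix the 1 lower member became 0 with the methods' t-test, adjusted or not, housekeeping centring, array weights or the slide as a block, and 0 to 2 on leaving out single rats. Among depleted cells the 2 higher members became 0 with the adjusted t-test, normexp or quantile normalization, and 1 with the adjusted threshold, the methods' t-test, limma on the arrays compared, the percentile over detected probes, no filter, either block, the last scan day or without rats 1 and 2, and ranged from 1 to 2 on leaving out single rats. The interaction count of 1 became 0 with normexp, the percentile over detected probes, housekeeping centring, no filter, the filter on every array, the slide as a block, the last scan day or without rats 1 and 2, 4 with array weights, and ranged from 0 to 4 on leaving out single rats, with 4 without D21 depleted rat 4. The 1 other chaperone gene higher in depleted D21 cervix became 3 by the adjusted p and 0 with quantile normalization, housekeeping centring or the slide as a block. Promoters with heat shock units went from 4 to 7 when 2 units sufficed. Other counts of members stayed at 0 or within 1.5 times.

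No value that passed the test changed sign. Of the 49 member results, 13, none of which had passed, changed sign under at least 1 alternative, in 34 instances. Of these, 11 came from leaving out single rats, which gave -0.10 to 0.33 for Hspa8, -0.16 to 0.30 for Hspb1 and -0.13 to 0.70 for Hsph1 between depleted groups, -0.020 to 0.43 for Hspb1 and -0.59 to 0.030 for Hspd1 in the interaction, -0.41 to 0.055 for Hsph1 and -0.024 to 0.40 for Hspe1 with depletion in NP rats, and -0.14 to 0.066 for Bag3 between whole groups. Averaging all probes gave Hspa1b -0.17 between whole groups and Hspa8 0.023 in NP rats and -0.14 between depleted groups. Quantile normalization gave Hspa8 0.030 between whole groups and 0.026 in the interaction, Hspb1 -0.087 between depleted groups and Hspd1 0.012 in the interaction. Normexp gave Hspa8 -0.16 and Hspb1 -0.30, and the percentile over detected probes -0.024 and -0.11, between depleted groups. The last scan day gave Hspa8 -0.35 between depleted groups and 0.013 in the interaction, Hspb1 -0.17 between depleted groups, and Hsph1 0.024 and Hspe1 -0.11 in NP rats. Without rats 1 and 2 Hspa8 was -0.24 and Hspb1 -0.25 between depleted groups and Hspd1 0.31 in the interaction. Either block gave Hsph1 -0.18 between depleted groups, array weights gave Hspe1 0.044 there, and housekeeping centring gave Bag3 0.21 between whole groups. Centring on the housekeeping list moved the median of all genes by 0.25 between whole groups and by 0.13 between whole and depleted D21 cervix, and the percentile over detected probes moved it by 0.19 and, between depleted groups, by -0.16. The cause of these changes was not tested.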
